A study of Homo sapiens with 4 samples.

Results

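The genes described here encode regulators of RAB proteins, the small GTPases that mark membranes and steer vesicle traffic. They were chosen by symbol: DENND genes, MADD, SBF1 and SBF2, RAB3GAP1 and RAB3GAP2, numbered TBC1D genes, RABGAP1, RABGAP1L, EVI5 and EVI5L. On the array 141 of 54613 non-control probe sets carried such a symbol alone, and they represent 60 genes. By role these are 20 DENN-domain genes with 50 probe sets, 34 TBC-domain genes with 82 probe sets and the RAB3GAP genes with 5. The rule also takes in 2 antisense RNAs and 2 pseudogenes, with 1 probe set each. Another 11 probe sets that pair such a symbol with other genes were left out.

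RNA recovered by immunoprecipitation of tagged FMRP was compared with total RNA of cell lysate. FMRP is the RNA-binding product of FMR1, whose loss causes fragile X syndrome. All 4 samples came from FlpIn T-Rex HEK293, an established human embryonic kidney line, carrying a stable transgene for FlagHA-tagged FMRP that was induced with doxycycline at 1 µg/ml for 16 h. The lysate group (2 arrays) is total RNA of the clarified NP-40 lysate, and the immunoprecipitate (IP) group (2 arrays) is RNA recovered with anti-FLAG M2 antibody beads washed at 300 mM KCl. The bait is therefore a tagged, induced protein in a kidney line, and no mock IP is among these samples. The labels do not say whether replicates were separate cultures, so p-values measure only the spread between these samples, which may be technical.

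A RAB protein cycles between an active, GTP-bound form on membranes and an inactive, GDP-bound form. DENN-domain proteins are guanine nucleotide exchange factors (GEFs), which load GTP and switch a RAB on. Many TBC-domain proteins are GTPase-activating proteins (GAPs), which speed GTP hydrolysis and switch it off, by supplying catalytic arginine and glutamine residues. Roles were assigned by symbol here, and whether each TBC-domain product acts as a GAP was not analysed. RAB3GAP1 and RAB3GAP2 form a complex that acts as a GAP for RAB3 and as an exchange factor for RAB18. Cells carry many such regulators, most of them large multidomain proteins, and many act on only a few RABs.

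Signals are given per probe set on a log2 scale, as deposited, and their medians were near equal, 4.67 to 4.71 on the 4 arrays. A change is therefore a shift against the rest of the array. No detection calls were used, and no fold is given where the lysate mean lies below these medians. Pearson's r across all probe sets, which are not independent, was 0.992 between the lysate arrays and 0.989 between the IP arrays. Of 6 markers fixed for HEK293, VIM, NEFL, KRT18, KRT8 and PAX2 lay between 6.23 and 12.84 on every array, and NEFM between 3.73 and 4.41. Of 10 markers of blood, liver, endothelium, muscle and islet, 9 were measured, between 2.44 and 5.83, each with a limma adjusted p of 0.0864 or more for a change between the groups.

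RAB regulator transcripts were called higher in the FMRP IP more often than lower. Of the 141 probe sets, 57 were called higher and 6 lower, and 78 were not called (limma, Benjamini-Hochberg adjusted p at most 0.05 over all probe sets). Over all probe sets 14.5% were called higher and 14.1% lower. Among the members this was 40.4% and 4.26%. Their median change, IP minus lysate on the log2 scale, was 0.44 with an interquartile range of 0.05 to 0.94, beside a median of 0.06 over all probe sets. Both IP arrays lay above both lysate arrays for 92 members and below them for 16, or 65.2% and 11.3%, where 34.9% and 28.6% of all probe sets did so. Taken from each IP array separately against the mean of the lysates, the member median was 0.41 for replicate 1 and 0.45 for replicate 2. Lysate replicate 2 stood above lysate replicate 1 by a median of 0.07 at the members and 0.00 over all probe sets. Without lysate replicate 1 the member median was 0.38. In each fit that left out an array, calls became fewer over all probe sets as well as among the members.

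The balance of calls and the sign of the median depended on the scaling. Hybridization controls are spiked-in sequences, and their median stood 0.48 higher on the IP arrays. When the arrays were aligned on these controls (hybridization control centring), 29 members were higher and 21 lower, and their median turned to -0.04. Of all 54613 probe sets 2995 were then higher and 17565 lower. The median of all probe sets then moved to -0.42, and 14.6% of all calls were higher in place of 50.7%. No called member took the opposite call.

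**Figure D1:**
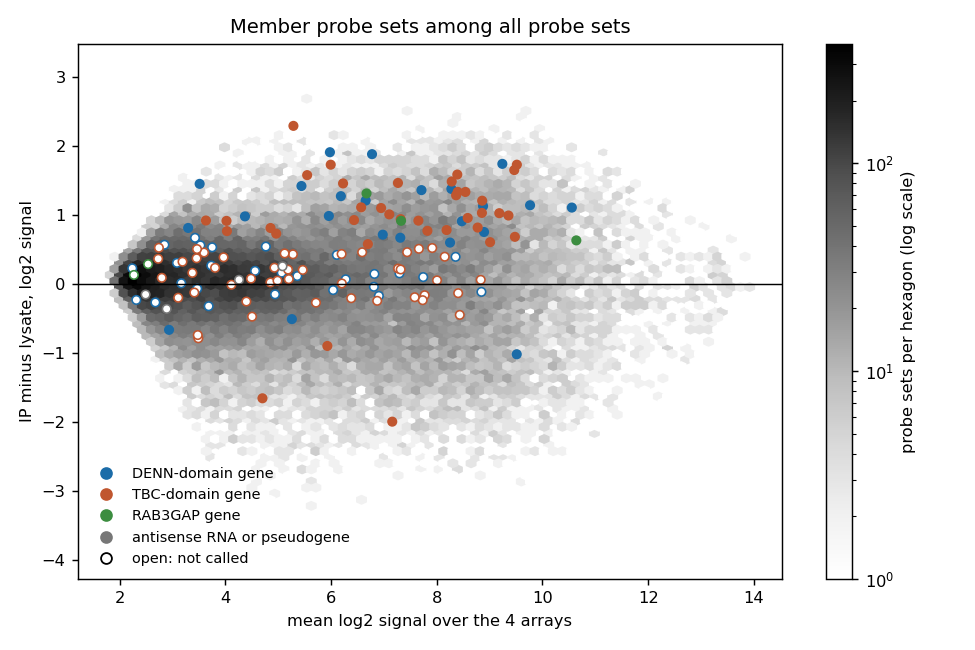
IP minus lysate (log2 signal) is plotted against the mean log2 signal over the 4 arrays, with all probe sets as grey hexagons and the 141 RAB regulator probe sets as points coloured by role, filled where called at an adjusted p of at most 0.05. Of the points, 57 are filled above 0 and 6 below it, and most filled points lie at a mean signal above the array medians.

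The members were brighter than the average probe set, with a median lysate signal of 5.90 against 4.69. Calls were more frequent at a mean signal at or above the median in general, with 24.3% of all probe sets there higher and 22.2% lower. Of the 98 members at that level 51 were higher and 5 lower. The mean covers all 4 arrays, so a probe set can reach this level through the signal of 1 group alone. An EVI5L probe set called higher did so, at 4.34 and 4.56 in the lysates and 5.20 and 5.32 in the IPs. Of the 43 dimmer members 6 were higher and 1 lower, where 4.82% of all dimmer probe sets were higher and 5.99% lower.

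To describe each gene once, the probe set with the highest mean over the 4 arrays was taken as its representative. By this measure 26 of 60 genes were higher, 4 lower and 30 not called, beside 19.3% higher and 16.2% lower among all 19775 genes. Both roles had more higher than lower calls: 9 of 20 DENN-domain genes were higher and 2 lower (median change 0.55), and 16 of 34 TBC-domain genes were higher and 2 lower (median 0.48). The median of all genes was 0.09. With hybridization control centring 5 DENN-domain genes were higher and 3 lower (median 0.07), and 8 TBC-domain genes were higher and 6 lower (median 0.00). Of all 19775 genes 1536 were then higher and 6472 lower, at a median of -0.39. Without lysate replicate 1 the medians were 0.48 and 0.44 in these roles and 0.10 over all genes. Without lysate replicate 2 they were 0.52, 0.56 and 0.07. Higher calls became fewer in both roles and over all genes in these fits. Of the 26 higher genes, 14 kept the call with each array left out in turn: DENND2A, DENND3, DENND5A, DENND5B, SBF1, EVI5L, RABGAP1, TBC1D1, TBC1D4, TBC1D9, TBC1D9B, TBC1D16, TBC1D31 and TBC1D32. All of these but RABGAP1 were also called with hybridization control centring, and they were the only higher genes called there. Of the 4 lower genes, DENND6A and EVI5 kept the call in each of these fits.

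**Figure D2:**
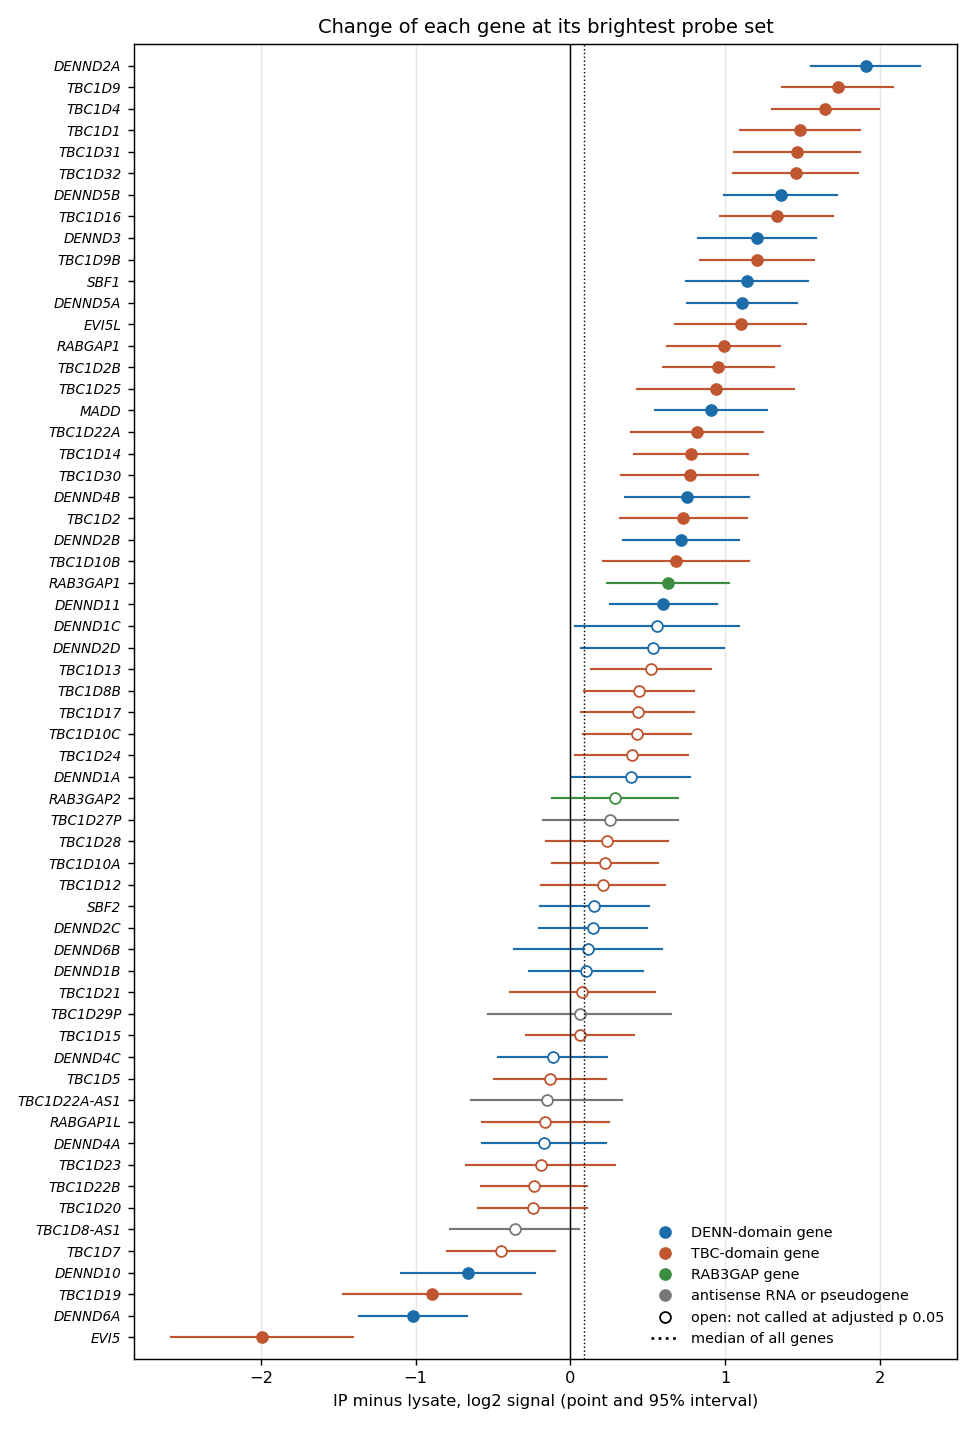
Each row is 1 of the 60 genes, with the change of its brightest probe set (IP minus lysate, log2 signal) and its 95% interval from the fit, coloured by role and filled where called at an adjusted p of at most 0.05. Changes run from -1.99 for EVI5 to 1.91 for DENND2A, with 26 filled points to the right of 0 and 4 to the left.

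Among DENN-domain genes the largest rise was that of DENND2A, which encodes an exchange factor described for RAB9. It stood at 4.97 and 5.08 in lysate replicates 1 and 2 and at 6.91 and 6.96 in IP replicates 1 and 2. The IP signal was 3.75-fold higher (log2 change 1.91, SE 0.14, 2 arrays per group, adjusted p = 0.00217 by limma). Its other probe sets rose by 1.42 and 1.45, so all 3 moved together. Of its close relatives, DENND2B, known first as the suppression of tumorigenicity gene ST5, rose by 0.71, and DENND2C and DENND2D were not called, at 0.15 and 0.53.

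Both DENND5 genes, whose products act on RAB39, were higher. DENND5A stood at 10.00 on both lysate arrays and at 11.04 and 11.17 on the IP arrays, a 2.15-fold rise at one of the brightest members (adjusted p = 0.004). DENND5B went from 7.10 and 6.96 to 8.34 and 8.44, a 2.57-fold rise (adjusted p = 0.0027). The IP arrays lay more than 1 log2 unit above the lysate arrays at both genes, with no overlap. A second DENND5B probe set rose by 1.88, from 5.39 and 6.28 to 7.60 and 7.83, while 3 others, at changes of 0.27, 0.42 and 0.67, were not called.

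DENND3, an exchange factor for RAB12 that is linked to autophagy, stood at 5.98 and 6.12 in the lysates and at 7.17 and 7.35 in the IPs, a 2.31-fold rise (adjusted p = 0.00383). Its other probe set rose by 0.98, from a lysate mean of 3.88. SBF1, also called MTMR5, joins a DENN domain to a catalytically inactive myotubularin phosphatase domain. Its brightest probe set stood at 9.06 and 9.33 in the lysates and at 10.32 and 10.35 in the IPs, a 2.20-fold rise (adjusted p = 0.00495). Of 5 SBF1 probe sets 4 were higher, by 0.99 to 1.74, and the dimmest, at a lysate mean of 4.47, changed by 0.19 and was not called. MADD, the exchange factor for the secretory GTPases RAB3 and RAB27, stood at 7.95 and 8.09 in the lysates and at 8.89 and 8.96 in the IPs (change 0.91, adjusted p = 0.00748). Its second probe set rose by 1.38. The 0.91 change was 0.83 and not called without lysate replicate 1, and 0.43 with hybridization control centring (adjusted p = 0.0927).

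The remaining higher DENN-domain genes changed less. DENND4B rose by 0.75 and DENND11 by 0.60, with further DENND11 probe sets at 1.27 (called) and 0.16. At the brightest probe set the calls of DENND2B, DENND4B and DENND11 were lost in most fits that left out an array and with hybridization control centring.

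DENND6A, an exchange factor for RAB14 in endosomal recycling, was the clearest fall in this role. It stood at 10.02 on both lysate arrays and at 9.06 and 8.95 on the IP arrays, 2.02-fold higher in the lysate (log2 change -1.02 ± 0.14 SE, adjusted p = 0.00486). DENND6A has 1 probe set, and its lysate and IP values do not overlap. DENND10 was called lower at its brighter probe set, at 3.45 and 3.09 in the lysates and 2.62 and 2.59 in the IPs (change -0.66, adjusted p = 0.0385). All of these values lie below the array medians, the other DENND10 probe set changed by 0.23, and the call was lost whichever array was left out.

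In DENND1A and DENND1B, whose products act on RAB35 in clathrin-mediated traffic, no probe set was called: the brightest changed by 0.39 (95% interval 0.01 to 0.77) and 0.10 (-0.27 to 0.47). DENND1C, at a lysate mean of 3.25, changed by 0.56 with an adjusted p of 0.112. DENND4A changed by -0.17 (-0.57 to 0.23). SBF2, the paralog of SBF1 mutated in a form of Charcot-Marie-Tooth neuropathy, changed by 0.15 (-0.20 to 0.51), from 7.16 and 7.28 to 7.36 and 7.39. The SBF1 interval at its brightest probe set was 0.75 to 1.54, and the difference between the paralogs was not tested.

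**Figure D3:**
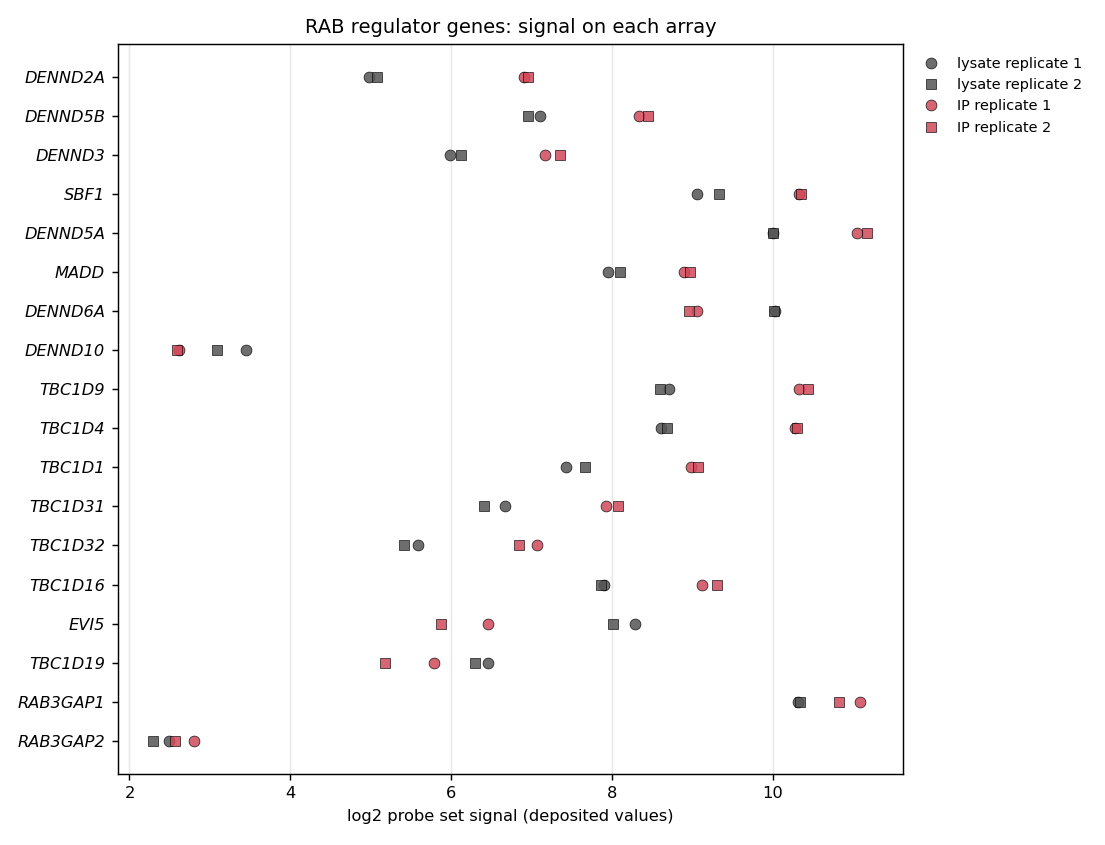
The log2 signal on each array is shown for 18 genes at their brightest probe set: the most changed called genes of each role and both RAB3GAP genes, with lysate arrays in grey and IP arrays in red (circles replicate 1, squares replicate 2). In 14 of the genes the red points lie to the right of both grey points, and in DENND6A, DENND10, EVI5 and TBC1D19 they lie to the left.

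RAB3GAP1, the catalytic subunit mutated in Warburg micro syndrome, was among the brightest members. Its brightest probe set stood at 10.31 and 10.33 in the lysates and at 11.09 and 10.82 in the IPs (change 0.63 ± 0.16 SE, adjusted p = 0.0324). A second probe set went from 6.96 and 6.78 to 7.71 and 7.85, and another from 6.02 and 6.01 to 7.38 and 7.28, rises of 0.92 and 1.31. The IP arrays were above the lysate arrays at all 3, and the dimmest, at a lysate mean of 2.21, changed by 0.13 and was not called. The 0.63 change was not called without either lysate array or without IP replicate 1 (0.50), and was 0.15 with hybridization control centring, whereas the rise of 1.31 kept its call in each of these fits. RAB3GAP2, the noncatalytic partner, has 1 probe set at 2.49 and 2.30 in the lysates and 2.80 and 2.57 in the IPs (change 0.29, adjusted p = 0.26), and with hybridization control centring the change was -0.19 (adjusted p = 0.502). All 4 RAB3GAP2 values lie below the array medians.

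TBC1D9 had the largest rise among TBC-domain genes. Its brightest probe set stood at 8.71 and 8.59 in the lysates and at 10.32 and 10.44 in the IPs, a 3.31-fold rise (log2 change 1.73 ± 0.15 SE, adjusted p = 0.00217). A second probe set, at a lysate mean of 5.13, also rose by 1.73, and the dimmest, at 4.12, changed by -0.01. The related TBC1D9B rose at all 4 of its probe sets, by 1.03, 1.21, 1.28 and 1.33, though 3 of them belong to a class that can cross-hybridize.

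TBC1D1 and TBC1D4 encode the AKT-regulated GAPs that control traffic of the glucose transporter GLUT4, TBC1D4 being known as AS160. TBC1D4 stood at 8.60 and 8.68 in the lysates and at 10.28 and 10.30 in the IPs, a 3.14-fold rise (adjusted p = 0.00217), and its second probe set, at a lysate mean of 8.71, rose by 0.61, a call lost whichever array was left out. TBC1D1 stood at 7.42 and 7.66 and at 8.98 and 9.07, a 2.80-fold rise (adjusted p = 0.00257). Its second bright probe set rose by 0.92, and 3 probe sets with lysate means of 3.27 to 3.37 changed by 0.16 to 0.46 and were not called. At both genes the bright probe sets were higher on each IP array than on either lysate array.

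TBC1D32, also called BROMI, is needed for cilium assembly and Hedgehog signalling. It stood at 5.59 and 5.41 in the lysates and at 7.07 and 6.84 in the IPs, a 2.74-fold rise (adjusted p = 0.00287). Its dimmer probe set, at 4.26 and 4.03, reached 6.57 and 6.30, and this change of 2.29 was the largest of all 141. TBC1D16, a GAP for RAB4 in receptor recycling, stood at 7.89 and 7.86 in the lysates and at 9.12 and 9.30 in the IPs, a 2.52-fold rise (adjusted p = 0.00284). Of its other probe sets 2 rose, by 1.58 and 1.11, and 2 with lysate means of 5.36 and 5.17 were not called, at 0.20 and 0.07.

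TBC1D31, which encodes a centrosomal protein, was the only member gene with calls in both directions. Its brighter probe set stood at 6.67 and 6.40 in the lysates and at 7.92 and 8.07 in the IPs, a rise of 1.46 (adjusted p = 0.0029). The other stood at 5.50 and 5.56 and fell to 4.05 and 3.71, a change of -1.65 (adjusted p = 0.00251). Lysate and IP arrays do not overlap at either probe set, and both calls held with each array left out and with hybridization control centring. Averaged over both, the gene changed by -0.10 and was not called. Which transcripts the probe sets detect was not analysed here.

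Further higher TBC-domain genes were RABGAP1 (0.99), a GAP described for RAB6, and EVI5L (1.10). The RAB7 GAP gene TBC1D2, known as Armus, and its relative TBC1D2B rose by 0.73 and 0.96. Another RABGAP1 probe set rose by 1.03, but the dimmest, at a lysate mean of 3.88, changed by -0.79 and was not called. With hybridization control centring that probe set was called lower. Other EVI5L probe sets changed by 0.81 (called), 0.37 and 0.02, and other TBC1D2B probe sets by 0.51, 0.21 and -0.25, not called. TBC1D25, a GAP for RAB33B in autophagy, rose by 0.94, and TBC1D14, which acts at recycling endosomes in autophagy, by 0.78. TBC1D22A, TBC1D30 and TBC1D10B rose by 0.82, 0.77 and 0.68. At the brightest probe sets of these genes, only RABGAP1 and EVI5L kept the call with each array left out, and only EVI5L with hybridization control centring.

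EVI5, a cell cycle-linked gene whose product binds RAB11, had the largest fall of all members. It stood at 8.29 and 8.02 in the lysates and at 6.46 and 5.87 in the IPs, 3.98-fold higher in the lysate (log2 change -1.99 ± 0.24 SE, adjusted p = 0.00324). The IP arrays differed more from each other than the lysate arrays did, and both lay below them. Its other probe sets, with lysate means of 4.74 and 2.48, changed by -0.47 and 0.53 and were not called. Its paralog EVI5L went the other way, from 6.23 and 6.57 to 7.48 and 7.51. TBC1D19 was also called lower, from 6.46 and 6.29 to 5.79 and 5.18 (change -0.90, adjusted p = 0.0362), but not without either lysate array or without IP replicate 2 (-0.59).

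Several TBC-domain genes with bright probe sets were not called. TBC1D15 and TBC1D5, both linked to RAB7 and the latter to retromer, changed by 0.06 (95% interval -0.29 to 0.41) and -0.13 (-0.49 to 0.23), from lysate means of 8.80 and 8.47. TBC1D20, the RAB1 GAP gene, changed by -0.24 (-0.60 to 0.11), and TBC1D23, which encodes a golgin-binding tethering protein, by -0.19 (-0.67 to 0.29). TBC1D22B changed by -0.23 (-0.58 to 0.11), where its paralog TBC1D22A rose. TBC1D7, the TBC1D gene whose product is the third subunit of the TSC complex that restrains mTOR, stood at 8.62 and 8.70 in the lysates and 8.18 and 8.25 in the IPs (change -0.45, adjusted p = 0.0663). With hybridization control centring TBC1D5, TBC1D7, TBC1D20 and TBC1D22B were called lower. The RAB35 GAP genes TBC1D10A and TBC1D13 changed by 0.22 and 0.52 with adjusted p of 0.296 and 0.0569. TBC1D24, mutated in epilepsy syndromes, was not called at its brightest probe set (0.40) but rose by 1.01 at the other.

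The antisense RNAs TBC1D22A-AS1 and TBC1D8-AS1 changed by -0.15 and -0.36, and the pseudogenes TBC1D27P and TBC1D29P by 0.26 and 0.06. None of these was called. With hybridization control centring both antisense RNAs were called lower, at -0.63 and -0.84.

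Probe sets of a gene share a target gene and are not replicates, and they often differed. Of 41 genes with 2 or more probe sets, 24 had changes of a single sign and 17 of both signs. In 24 genes calls went only up, in 3 only down, in 1 both ways, and in 13 there was none. Only 6 genes had every probe set higher: DENND2A, DENND3, MADD, TBC1D4, TBC1D32 and TBC1D9B. The median distance between a gene's lowest and highest change was 0.70, and in 15 genes it exceeded 1. The brightest probe sets of these 41 genes had a median change of 0.53, with 20 higher and 2 lower calls, and the other 81 had a median of 0.42, with 31 higher and 2 lower. In some genes calls lay only at probe sets other than the brightest. RABGAP1L was at -0.16 at the brightest and rose by 1.58 at another, a call kept with each array left out, and by 0.77 at one where the call was lost in 3 of these 4 fits. DENND4C was at -0.11 and rose by 0.67 and 0.81 at others, but the first call was lost in all 4 fits and the second, at a lysate mean of 2.89, in 3 of them. Its brightest probe set was called lower with hybridization control centring (-0.59). TBC1D12 and TBC1D8B, at 0.21 and 0.44, each rose at a dimmer probe set, by 0.91 and 0.92, with the call lost in 3 and 2 of the 4 fits. DENND6B had changes of 0.12 at the brightest, 0.54 at another and a called fall of 0.51 at the remaining one (adjusted p = 0.0469), which was lost whichever array was left out.

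**Figure D4:**
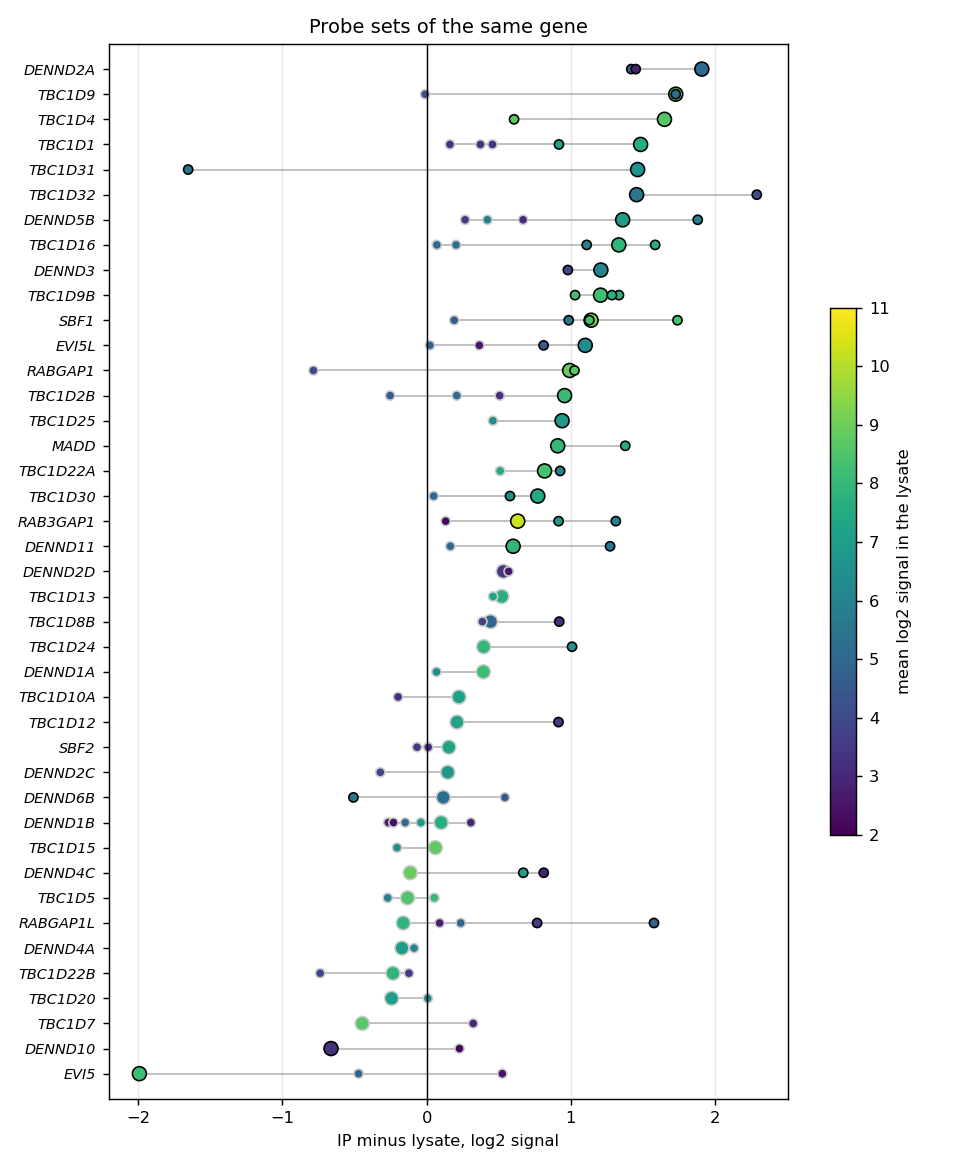
All probe sets of the 41 genes with 2 or more are plotted by change (IP minus lysate, log2 signal); large points are the brightest probe set, colour gives the mean lysate signal and a black edge marks a call at an adjusted p of at most 0.05. TBC1D31 and EVI5 span the widest ranges, 3.12 and 2.52 on the log2 scale.

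Genes of the wider RAB pathway were placed beside the members, each at its brightest probe set, with 19.3% of all genes higher and 16.2% lower as the background. Of 57 RAB GTPase genes, 24 were lower and 3 higher, at a median change of -0.47, the opposite balance to that of the member genes. RAB8B had the largest fall, from 7.91 and 7.65 to 5.87 and 4.91 (change -2.39, adjusted p = 0.00456). RAB40C had the largest rise, at 1.18, ahead of RAB8A (0.83) and RAB6B (0.53). RAB8A and RAB6B are named here outside the naming rule, with their values already seen. In the 4 fits with an array left out, the RAB median ran from -0.51 to -0.33. With hybridization control centring 38 RAB genes were lower and 1 higher, at a median of -0.95. Of all 19775 genes 6472 were then lower and 1536 higher, at a median of -0.39. Of 6 genes for prenylation and recycling of RABs 3 were lower and 1 higher, led by the prenylated RAB acceptor gene RABAC1 (-1.75) and the geranylgeranyl transferase gene RABGGTA (0.59), whose call was lost whichever array was left out.

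The RABs given above or below as partners of a member, with some of their close paralogs, can be set beside it. Of these 27 RAB genes, chosen with their values known, 14 were lower, 1 higher and 12 not called. Among all 57 RAB genes, partners or not, 42.1% were lower and 5.26% higher. The set is not complete, as no RAB is given here for members such as TBC1D1, TBC1D4 and TBC1D30. RABs outside it include RAB8A, called higher at 0.83, and RAB25 and RAB33A, not called at 0.20 and -0.49. A relation between the change of a regulator and that of its RAB was not tested. DENND6A and its substrate RAB14 were both lower, at -1.02 and -1.13. DENND2A stood at 1.91 and RAB9A and RAB9B were lower, at -1.25 and -1.09. SBF1 was higher, at 1.14, while RAB28, the RAB it was described to act on, was lower, at -1.19, and for SBF2 and RAB21 the changes were 0.15 and -2.03. Beside the higher DENND5 genes, RAB39B was lower at -0.55 and RAB39A, also at -0.55, was not called (adjusted p = 0.0625). For MADD, RAB27A and RAB27B were lower, at -1.15 and -0.54. The RAB3 genes, which MADD and the RAB3GAP complex share, were not called, at -0.58, -0.14, -0.06 and -0.38 for RAB3A, RAB3B, RAB3C and RAB3D, whereas RAB18 was lower (-1.75).

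Other partners in this set were lower or not called, except RAB6B. RAB35, the partner of DENND1A, DENND1B, TBC1D10A and TBC1D13, was at -0.09, and RAB12, the partner of DENND3, at 0.01, neither called. Beside the higher TBC1D16, RAB4A was lower (-0.69) and RAB4B, at -0.57, was not called (adjusted p = 0.0699). Beside the lower EVI5, RAB11A was lower (-0.95) and RAB11B, at -0.10, was not called. Beside the higher TBC1D25, RAB33B was lower (-1.01). RAB7A, linked to TBC1D2, TBC1D5 and TBC1D15, was lower (-0.76), and RAB7B, at 0.52, was not called. RAB1A, the partner of TBC1D20, was lower (-1.12), and RAB1B, at -0.37, was not called. For RABGAP1, RAB6A, dim at a lysate of 2.84 and 3.47, was not called (-0.05), and RAB6B was higher (0.53).

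Other families showed which groups shared the members' direction. Of 43 RAB effector genes, 21 were higher and 3 lower (median 0.56). MICAL3, encoding an actin-oxidizing RAB effector, rose by 1.62, and APPL1, encoding an endosomal adaptor, fell by 2.02, at 6.56 and 5.39 in the IPs. Without lysate replicates 1 and 2 the effector medians were 0.59 and 0.46, with fewer higher calls among effectors and over all genes. With hybridization control centring 6 effector genes were higher and 9 lower (median 0.08). Of all 19775 genes 1536 were then higher and 6472 lower (median -0.39). Of 6 TBC-domain genes outside the rule 4 were higher and none lower (median 0.86), with SGSM2 at 1.63. With hybridization control centring only 1 of the 6 was higher and 1 was lower (median 0.38). Without lysate replicate 1 the median was 0.77, with fewer higher calls. Of 8 other genes for DENN-type domains 3 were higher and 1 lower (median 0.24). There the folliculin gene FLCN was at 1.53, and C9orf72, linked to amyotrophic lateral sclerosis, was at -1.10. With hybridization control centring 2 were higher and 3 lower (median -0.23). Without lysate replicate 1 the median was 0.20, with fewer higher calls.

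Among 30 genes for RAB exchange factors of other families 7 were higher and 10 lower (median -0.22). That is 23.3% higher, near the 19.3% of all genes, and 33.3% lower beside 16.2%. Changes ran from ANKRD27, encoding the RAB21 exchange factor VARP, at 1.59 to the TRAPP subunit gene TRAPPC5 at -1.88. With each array left out in turn the median ran from -0.19 to -0.12, and lower calls did not outnumber higher calls in every fit. With hybridization control centring 4 were higher and 16 lower, at a median of -0.69 beside -0.39 over all genes. These groups are described by counts and medians only, and differences between them were not tested.

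**Figure D5:**
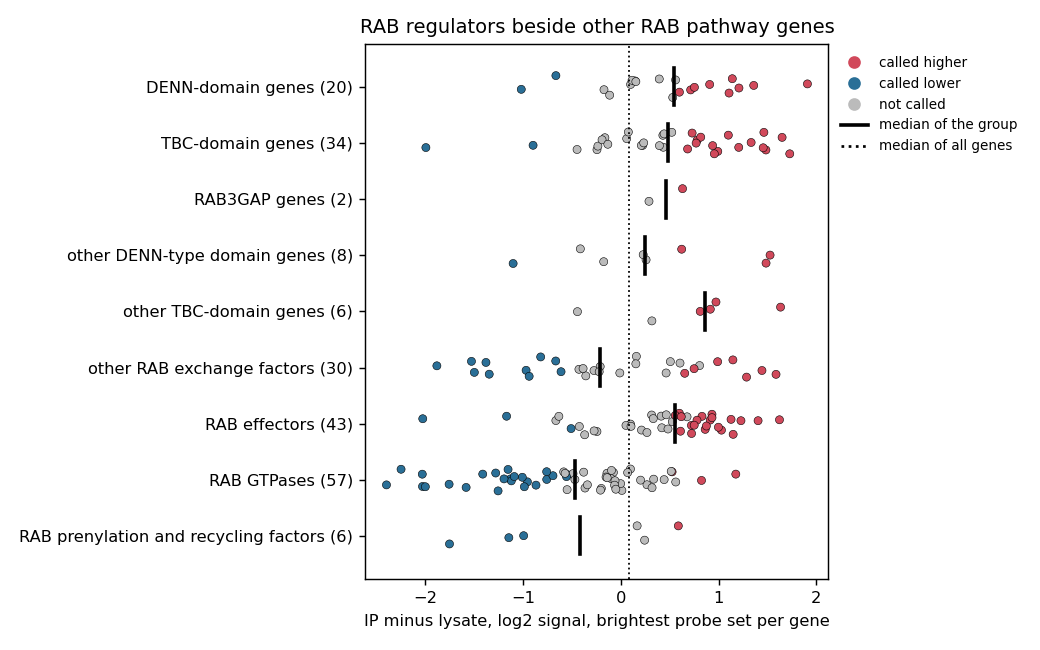
Points are genes at their brightest probe set, by change (IP minus lysate, log2 signal), in the 3 roles of RAB regulators and 6 other groups of the RAB pathway; black bars are group medians and the dotted line is the median of all genes, 0.09. The medians of the DENN-domain and TBC-domain genes, 0.55 and 0.48, lie to the right of that line and the RAB GTPase median, -0.47, to its left.

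The genomic span of the 56 regulator genes, introns included, showed little relation to the change at the brightest probe set, with Pearson's r of -0.01 to log10 span and Spearman's rho of 0.04 across genes. Transcript length was not analysed here.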

How the data were processed

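RNA of 2 lysate and 2 IP samples was hybridized to Affymetrix Human Genome U133 Plus 2.0 arrays, 1 per sample, from 2 µg RNA. The values deposited by the authors are treated as log2 signals because of the range they cover. How the authors corrected background, summarised probes and normalized is not stated in the labels used here, and the number of arrays limits the precision. Gene symbols come from the platform annotation, and all 60 member genes matched the GRCh38.p14 gene table, used for gene class and span.

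A linear model of IP minus lysate (lmFit and eBayes of limma 3.58.1, run under R 4.3.3) was estimated over all 54613 non-control probe sets with no filter on low values, leaving 2 residual and 3.66 prior degrees of freedom. P-values were Benjamini-Hochberg adjusted over all of them. The fit was tested on simulated data. Members and lists were chosen with earlier results of these data known. By the naming rule, the value on each array is given, per role, for up to 6 of the largest rises and 6 of the largest falls. These were taken among called brightest probe sets without overlap. The rule also takes both RAB3GAP genes and genes with calls in both directions. Other lists name their largest rise and fall, and the RABs named as partners of a member, RAB6B and RAB8A were added outside this rule with their values known. Remaining members are given by their change, and SBF2, EVI5L and TBC1D7 also by the value on each array, outside the rule. Alternatives covered scaling, filters, the choice of probe set per gene, thresholds, the prior, a replicate block and leaving out each array. Protein length was planned and was not analysed here.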

Additional observations from a re-analysis of the deposited data

How the results depend on the processing

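Quantile normalization, a trended prior and the replicate block left the counts and medians of members and of both roles within 1.5 times or the replicate spread. They kept the call of all 18 member genes that the naming rule gives array by array. Deviations from the group means did not correlate between arrays of the same replicate number (0.00 across probe sets). With 2 arrays per group this cannot tell whether an IP came from the lysate of the same number. With the replicate block 54 members were higher and 6 lower.

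With hybridization control centring members numbered 29 higher and 21 lower, DENN-domain members 12 and 6, and TBC-domain members 16 and 13. All probe sets numbered 2995 higher and 17565 lower. The medians turned to -0.044 for members, -0.0026 for DENN-domain members and -0.029 for TBC-domain members, beside -0.42 for all probe sets, and the RAB3GAP2 change turned to -0.19. These reversals follow from lowering every change, IP minus lysate, by the control shift of 0.48. With 1 probe set per gene after the filter on low values, which tests fewer probe sets, 32 member genes were higher. Of these 10 were DENN-domain and 21 TBC-domain, and 1 DENN-domain gene was lower, with a DENN-domain median of 0.60. Of all 13165 genes in that fit 4611 were higher and 3791 lower. The filter alone also gave a DENN-domain median of 0.60. With the mean of a gene's probe sets 32 of 60 member genes were higher and 3 lower. Of these 11 and 1 were DENN-domain, and 20 TBC-domain genes were higher. Of all 19775 genes 3913 were then higher and 3478 lower. The change of TBC1D31 turned to -0.10. Without _s_at or _x_at probe sets the DENN-domain median was 0.35 and 20 TBC-domain members were higher. Of all probe sets in that fit 4428 were higher and 4559 lower. At an adjusted p of 0.01, 3 members were lower, 1 of them DENN-domain, and 21 TBC-domain members were higher. The share of all probe sets called at 0.01 is not given here. A change of at least 1 left 31 higher and 3 lower, 12 and 1 of them DENN-domain and 18 higher TBC-domain.

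With each array left out in turn, members called higher ranged from 33 to 48 and lower from 3 to 5, and the median from 0.38 to 0.48. For DENN-domain members these were 12 to 18, 1 in each fit, and 0.30 to 0.52, and for TBC-domain members 19 to 30, 2 to 4, and 0.40 to 0.50. With 1 array left in a group, its spread is assumed to be that of the other group. Calls over all probe sets also became fewer in each of these fits. Of the higher calls 31 of 57 held in each of these fits, and of the lower calls 3 of 6. Weak signal limits the 40 members that lay below the array median on all 4 arrays, and no detection limit is known for them.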
